A study of Homo sapiens with 16 samples.

Results

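The comparison described here is doxycycline against none in MDA-MB-231 cells that carry a scrambled control hairpin, the shScramble line. It holds 8 of the 16 libraries of the series, chosen by their labels: 4 with and 4 without the drug. MDA-MB-231 is an established human triple-negative breast cancer line of basal and mesenchymal character. The other 8 libraries are from the same line with a hairpin against AKAP2 (shAKAP2), again 4 with and 4 without doxycycline, and serve here only to show where the shScramble response differs. In both lines the drug switches on the promoter of the hairpin, so libraries with doxycycline hold the drug and an induced hairpin together, and libraries without it hold neither. No library has the drug without a hairpin, so the effects of the drug and of the control hairpin cannot be told apart within this line. The libraries are labelled as biological replicates, with no word on separate cultures, and the p-values therefore cover the variation among these 8 libraries, which may be technical. The sources used here do not give the drug dose, the time of treatment, the hairpin sequence or whether a line is 1 clone.

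A short hairpin RNA is cut by the cell into a small RNA that guides an Argonaute protein to matching transcripts. A scrambled hairpin is designed to match no transcript over its full length, but a small RNA can also lower transcripts that pair with its seed, the bases near its 5′ end, mostly in the 3′ untranslated region (3′ UTR). Doxycycline, a tetracycline antibiotic, binds the bacterial-type ribosome of mitochondria and slows the making of the proteins encoded by mitochondrial DNA. Long double-stranded RNA is sensed by helicases that switch on interferon genes.

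Total counts ranged from 25411278 to 37472525 per shScramble library. The leading principal component, with 35.5% of the variance, set replicate 1 of both conditions (-46.8 and -37.6) apart from the other 6 libraries (3.17 to 25). The next component, with 17.9%, separated replicates 2 to 4 by the drug (-25.8 to -16.6 with it and 11.1 to 24.7 without it) but not replicate 1 (5.42 and 0.739). Replicate number was therefore a block in the model, and counts without the block and without replicate 1 are given beside the results. Of 20 genes listed as markers of the line, mesenchymal genes together with the keratins KRT7, KRT8, KRT18 and KRT19, 19 were tested. The 1 called was KRT7, which was higher (log2 0.32), and 17 of the 19 were above 0. The targeted gene of the other line, AKAP2, a scaffold that binds protein kinase A, stood at 1.48, 0.959, 1 and 1.25 counts-per-million (CPM, on scaled library sizes) in replicates 1 to 4 without the drug. With the drug it stood at 0.859, 1.6, 2.19 and 2.38 CPM, and it was not called in the shScramble line (log2 fold change 0.53, SE 0.354, adjusted p = 0.653). In the shAKAP2 line it was 1.38 to 1.45 CPM without the drug and 0 to 0.124 CPM with it. AKAP2 shares exons with the readthrough gene PALM2-AKAP2, so its counts are uncertain.

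Doxycycline in the shScramble line changed few genes. Of 14771 genes tested, 103 were higher (0.697%) and 69 lower (0.467%), together 1.16%, at a Benjamini-Hochberg adjusted p under 0.05 in edgeR's quasi-likelihood test. The changes were small: the median absolute log2 fold change was 0.57 for higher and 0.54 for lower genes, and 14 and 9 genes changed at least 2-fold. The 4 libraries with and the 4 without the drug did not overlap for 61 of the higher and 58 of the lower genes, and over all genes tested such separation was found for 2.34% upward and 2.18% downward. Without the block 14 genes were higher (0.0948%) and 23 lower (0.156%), together 0.25%, and all of them were among those called with it. Without replicate 1 the counts were 718 (4.85%) and 416 (2.81%), together 7.66% of 14799 genes, and they held 101 of the 103 and 69 of the 69. Without replicate 2 they were 17 and 17, and without replicate 3 they were 25 and 30. Without replicate 4 they were 75 and 64.

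**Figure D1:**
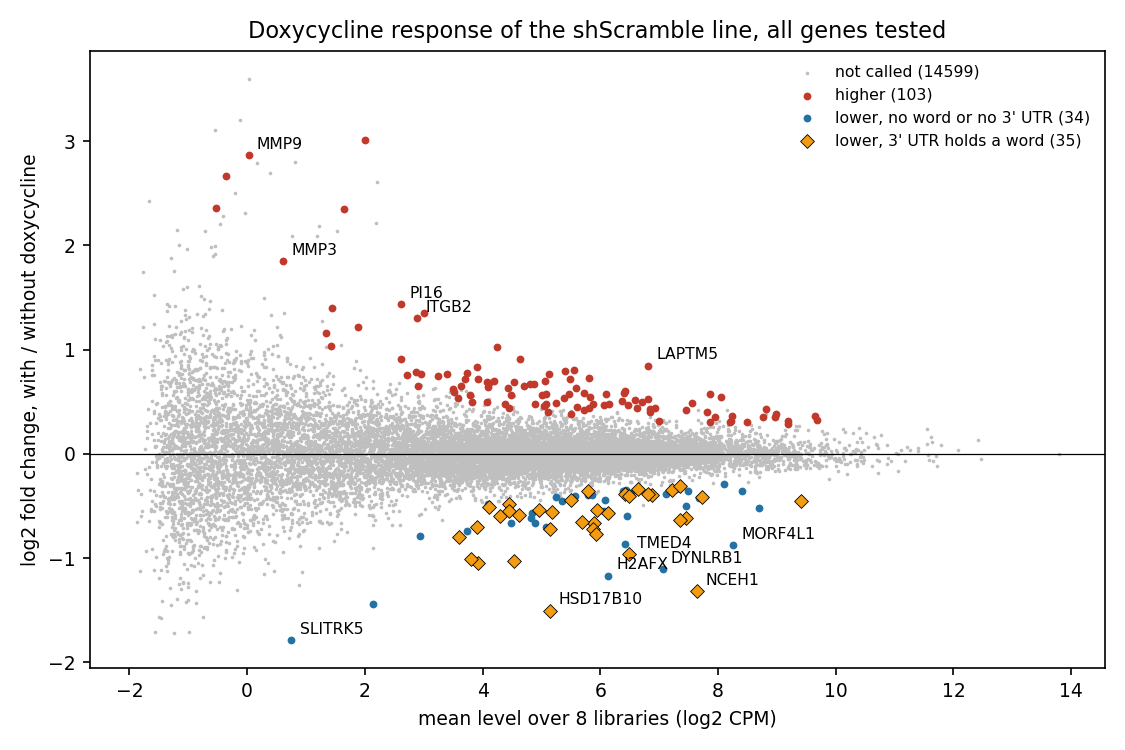
The log2 fold change with against without doxycycline (vertical axis) of the 14771 genes tested is plotted against the mean level over the 8 shScramble libraries in log2 CPM (horizontal axis). The 103 higher genes are red, the 69 lower genes are blue or, for the 35 whose 3′ UTR holds either of a pair of sequence words, orange; the largest rises lie at low levels and the best-separated falls at medium to high levels.

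The named genes with the smallest p among those that fell have differing functions. HSD17B10, a mitochondrial dehydrogenase that is also a subunit of the mitochondrial RNase P (GRCh38 chromosome X, 53431258 to 53434373, minus strand), stood at 43.7, 51.7, 59 and 56 CPM in replicates 1 to 4 without the drug. With the drug it stood at 19.2, 18.9, 17.8 and 17.9 CPM. Every library with the drug was far below every library without it, and the mean fell from 52.6 ± 6.66 to 18.5 ± 0.707 CPM (SD, n = 4), a 2.83-fold drop (log2 -1.50, SE 0.102, adjusted p = 5.68e-06). NCEH1, a neutral cholesterol ester hydrolase (chromosome 3, 172630249 to 172711218, minus strand), fell from 228, 269, 329 and 317 CPM to 89.7, 113, 132 and 124 CPM. It had the smallest adjusted p of the named genes (3.24e-07, log2 -1.32, SE 0.0641). Replicate 1 was the lowest library of each group for NCEH1, and the drop was similar without it (log2 -1.31).

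H2AFX, the histone variant that is phosphorylated around DNA breaks (chromosome 11, 119093854 to 119095467, minus strand), fell from 76.2, 107, 117 and 90.7 CPM to 36.3, 48.9, 45.4 and 42.3 CPM (log2 -1.17, SE 0.0793, adjusted p = 5.68e-06). DYNLRB1, a light chain of the dynein motor (chromosome 20, 34516409 to 34540958, plus strand), fell from 197, 183, 176 and 170 CPM to 102, 84.9, 72.2 and 80.6 CPM (log2 -1.10, SE 0.0737). The groups did not overlap for either gene, and replicate 1 was lowest in both groups for H2AFX and highest in both for DYNLRB1. DYNLL2, another dynein light chain, fell by 0.86 on the log2 scale (SE 0.0858), from 110.0 ± 6.69 to 60.7 ± 5.64 CPM.

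TMED4, a cargo receptor between the endoplasmic reticulum and the Golgi (chromosome 7, 44577894 to 44582287, minus strand), was the most even of these genes. Its 4 libraries without the drug stood at 116, 116, 122 and 119 CPM and those with it at 63, 60.8, 59.4 and 60 CPM (log2 -0.96, SE 0.0711, adjusted p = 1.27e-05). MORF4L1, a chromatin protein that reads histone methylation (chromosome 15, 78810487 to 78898133, plus strand), fell from 396, 390, 390 and 410 CPM to 231, 224, 206 and 207 CPM (log2 -0.87, SE 0.0656). Its processed pseudogene MORF4L1P1 fell by 0.74 on the log2 scale, and reads of the pair cannot be told apart with certainty. SLITRK5, a transmembrane protein known from neurons, had the largest fold of the lower named genes at low levels, from 3.58, 2.58, 2.21 and 2.09 CPM to 0.547, 0.749, 0.627 and 1.07 CPM (log2 -1.78, SE 0.323, adjusted p = 0.0149).

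Further falls were 1.01 to 1.04 on the log2 scale for LMLN, a metallopeptidase, EVI5L, a Rab GTPase-activating protein, and SOCS2, a suppressor of cytokine signalling. Smaller ones were 0.79 for MBNL3, a splicing regulator, 0.78 for ZC3HAV1L and 0.76 for KATNAL1, a relative of the microtubule-severing katanin. LMLN fell from 20.5 ± 1.42 to 9.98 ± 1.27 CPM, EVI5L from 30.9 ± 2.97 to 15.2 ± 2.33 CPM and SOCS2 from 18.5 ± 1.38 to 9.4 ± 2.63 CPM (SD, n = 4). SOCS2 in replicate 1 with the drug, at 13.2 CPM, was nearer to the uninduced libraries than the other 3, which lay between 7.49 and 9.15 CPM. LMLN and SOCS2 overlap genes on the opposite strand, and since no use of strand in counting is stated, their values may hold reads of those genes. HSD17B10 and TMED4 were the 2 of the 59 called named genes that passed the threshold in every alternative tried.

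The 3′ UTRs of the lower genes were read for shared 7-letter words, on the transcript strand and in the longest annotated 3′ UTR of each gene. Of the 14771 genes tested, 12549 have one annotated, among them 67 of the 69 lower genes (0.534% of 12549) and 100 of the 103 higher genes (0.797%). Of all 16384 words, GTCGCCC differed most in share between the lower genes and the genes not called: it stood in 23 of the 67 lower genes (34.3%), in 2 of the 100 higher genes (2%) and in 5.02% of the 12382 genes not called. The next word by this ranking, GCCCAGG, is a common one, in 55.2% of lower genes against 31.4% of those not called. A second word, AAGTCGC, was taken after the data had been seen, as the word with the lowest mean log2 fold change among all words held by at least 150 genes. It stood in 13 lower genes (19.4%), 3 higher genes (3%) and 1.48% of genes not called. The words share the letters GTCGC, and 35 of the 67 lower genes (52.2%) held either, against 5% of the higher and 6.28% of the uncalled genes. Since both words were chosen on these values, their shares and the fold changes of their holders are a description and were not tested.

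Sites are shown for some of the genes with the largest falls, because they show which letters the sites share and where they part; capitals mark the word, with 10 reference bases on each side.
HSD17B10: ctgcctaccaGTCGCCCtctgtgccta
LMLN (first word): tgggaacctgGTCGCCCagtgttttct
EVI5L: ctgttcacatGTCGCCCaggcgggaaa
GINS3: tccaaaaacaGTCGCCCagataaagga
USP40: agctctggatGTCGCCCacccagctgc
SLC16A3: ccagcggatcGTCGCCCgatcagtgtt
NCEH1: agaaaatatgAAGTCGCatgcactgga
LMLN (second word): gcacagaggaAAGTCGCttttttttca
SOCS2: gtaaaggctgAAGTCGCgttttatcag
MBNL3: actatgaaatAAGTCGCagctctttgc
ANKRD52: aagatttctaAAGTCGCaccccaaaag
AKIRIN1: cccctgcccgAAGTCGCatataggctg

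These lie in the GRCh38 reference at chrX:53431282-53431308 (HSD17B10, minus strand), chr3:198042012-198042038 and chr3:198041142-198041168 (LMLN, first and second word, plus), chr19:7864920-7864946 (EVI5L, plus), chr16:58405261-58405287 (GINS3, plus) and chr2:233477161-233477187 (USP40, minus). The others lie at chr17:82239094-82239120 (SLC16A3, plus), chr3:172632790-172632816 (NCEH1, minus), chr12:93575443-93575469 (SOCS2, plus), chrX:132372822-132372848 (MBNL3, minus), chr12:56241844-56241870 (ANKRD52, minus) and chr1:39005408-39005434 (AKIRIN1, plus). USP40, ANKRD52 and AKIRIN1 lie outside the naming rule and were chosen for their sites. The sites shown are not all those of the genes with the largest falls. In EVI5L the word begins the longer run GTCGCCCAGG, which is common in Alu repeats. Of the 23 lower genes with the first word 9 hold this run, and the other 8 are not shown. Among those 8 are TMED4 and KATNAL1, which fell further than GINS3, USP40 and SLC16A3. The run stood in 343 of the 647 genes that hold the first word and in 13.4% of lower genes against 2.7% of genes not called. The first word outside that run stood in 20.9% of lower genes and 2.33% of genes not called. H2AFX, DYNLRB1, DYNLL2, MORF4L1, SLITRK5 and ZC3HAV1L hold neither word in the 3′ UTR that was read, which says only that these letters are not in it. None of 2370 mature human miRNAs in RefSeq (GRCh38.p14) has a seed, bases 2 to 8, that pairs with either word.

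The choice of the words also favours low fold changes among all their holders in the shScramble line. The median log2 fold change was -0.0325 for the 647 holders of GTCGCCC and -0.0611 for the 199 holders of AAGTCGC, against 0.00527 for the 11732 genes with neither. Of those genes 57.8%, 64.3% and 48.3% had a fold change below 0. In the shAKAP2 line the same medians were -0.0132, -0.0428 and 0.00665. The mean log2 fold change differed less between the lines: it was -0.0479 in shScramble and -0.0554 in shAKAP2 for GTCGCCC, and -0.0877 and -0.0819 for AAGTCGC. Without replicate 1 the shScramble medians were -0.0287, -0.0293 and 0.00523, with 54.4%, 55.3% and 48.6% below 0. Among the larger set of 389 lower genes called without replicate 1, 14.9% held GTCGCCC and 7.46% AAGTCGC, against 4.92% and 1.39% of genes not called there. Genes with either word have longer 3′ UTRs, with a median of 3200 bases for the first and 2690 for the second against 1570 for neither. Lower genes had a median of 1872 bases and genes not called 1642 bases; the part of length in the shares was not tested. The word GAACACA, which ranks first by the same rule among genes that fell in the shAKAP2 line, stood in 14.9% of lower, 14% of higher and 14.3% of the other genes here, and its 1800 holders had a median of 0.0196 in the shScramble and -0.218 in the shAKAP2 line.

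**Figure D2:**
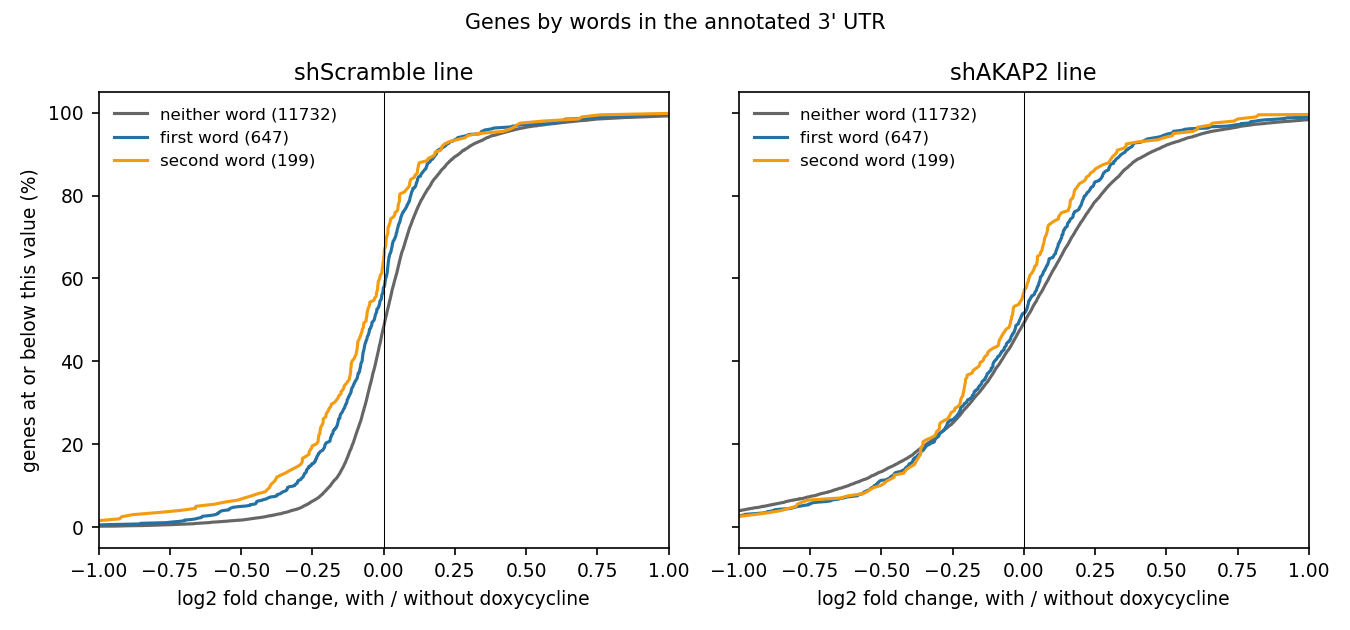
Each curve gives the percentage of genes (vertical axis) at or below a log2 fold change with against without doxycycline (horizontal axis), for genes whose annotated 3′ UTR holds GTCGCCC (blue, 647), AAGTCGC (orange, 199) or neither (grey, 11732), with the shScramble line on the left and the shAKAP2 line on the right. In the shScramble line the blue and orange curves run to the left of the grey one, with medians of -0.0325 and -0.0611 against 0.00527.

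The largest rises of named genes without overlap between groups were in secreted proteases at low levels. MMP9, a gelatinase (chromosome 20, 46008908 to 46016561, plus strand), stood at 0.215, 0.148, 0.38 and 0.11 CPM without the drug and at 0.39, 1.7, 2.23 and 2.96 CPM with it (log2 2.87, SE 0.538, adjusted p = 0.0186). MMP3, a stromelysin (chromosome 11, 102835801 to 102843803, minus strand), went from 0.403, 0.775, 0.692 and 0.66 CPM to 0.898, 2.96, 2.78 and 3.04 CPM (log2 1.85, SE 0.313, adjusted p = 0.0104). For both, replicate 1 with the drug was barely above the highest uninduced library while replicates 2 to 4 stood well above it, and without the block neither was called (adjusted p = 0.0866 and 0.109). MMP9 overlaps SLC12A5-AS1 and MMP3 overlaps WTAPP1 on the opposite strand.

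PI16, a secreted peptidase inhibitor known from fibroblasts, rose from 2.12, 4.43, 2.97 and 3.96 CPM to 9.84, 10.4, 7.91 and 7.53 CPM (log2 1.43, SE 0.196, adjusted p = 0.00244). ITGB2, the beta chain of the leukocyte integrins, rose from 5.89, 3.73, 3.53 and 4.07 CPM to 9.25, 10.8, 11 and 11.1 CPM (log2 1.31, SE 0.174). Their groups did not overlap, and replicate 1 was not weaker than the others for PI16. LAPTM5, a lysosomal membrane protein known from blood cells (chromosome 1, 30732469 to 30757820, minus strand), had the smallest adjusted p of the higher named genes (3.78e-05). It rose from 67.1, 91.9, 84.6 and 76.4 CPM to 111, 164, 156 and 148 CPM (log2 0.85, SE 0.0705).

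Other rises came to log2 1.35 for GGT1, a gamma-glutamyltransferase, 1.22 for CALCR, the calcitonin receptor, and 1.03 for ALPP, the placental alkaline phosphatase. GGT1 and ALPP have near-identical copies, so their counts are uncertain. Of these 3, none was called without the block (adjusted p = 0.362, 0.349 and 0.123). ZNF114, PCDH1, ADAMTSL4, PDGFRB, GDPD5 and PTGS1 rose by 0.77 to 0.83 on the log2 scale; PDGFRB is a growth factor receptor of pericytes and fibroblasts and PTGS1 the constitutive cyclooxygenase. Without the block ZNF114 and PDGFRB were called and PCDH1, ADAMTSL4, GDPD5 and PTGS1 were not (adjusted p = 0.156 to 0.22). For PDGFRB the 4 uninduced libraries lay between 9.06 and 11.2 CPM and the induced ones between 16.1 and 18.6 CPM, so that the groups stood well apart (SE 0.109, adjusted p = 0.00285).

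Some called genes outside the naming rule also had large folds, and they are given as chosen after their values were seen. MSR1, a macrophage scavenger receptor, stood at 0.0538, 0.221, 0.277 and 0.293 CPM without and 0.468, 1.19, 1.65 and 2.08 CPM with the drug (log2 2.66, SE 0.429, adjusted p = 0.0071). CHI3L1, a secreted chitinase-like protein, stood at 0.592, 0.849, 1.31 and 0.806 CPM without and 0.625, 6.33, 8.54 and 6.06 CPM with it (log2 2.35, SE 0.363, adjusted p = 0.00562). For CHI3L1 the rise lay in replicates 2 to 4, and replicate 1 with the drug stayed within the uninduced range. HSD3B1, a steroid dehydrogenase, was highest in replicate 1, at 3.17 CPM without and 12 CPM with the drug, against 1.07 to 2.11 CPM in the other induced libraries, and was not called without replicate 1 (adjusted p = 0.125).

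**Figure D3:**
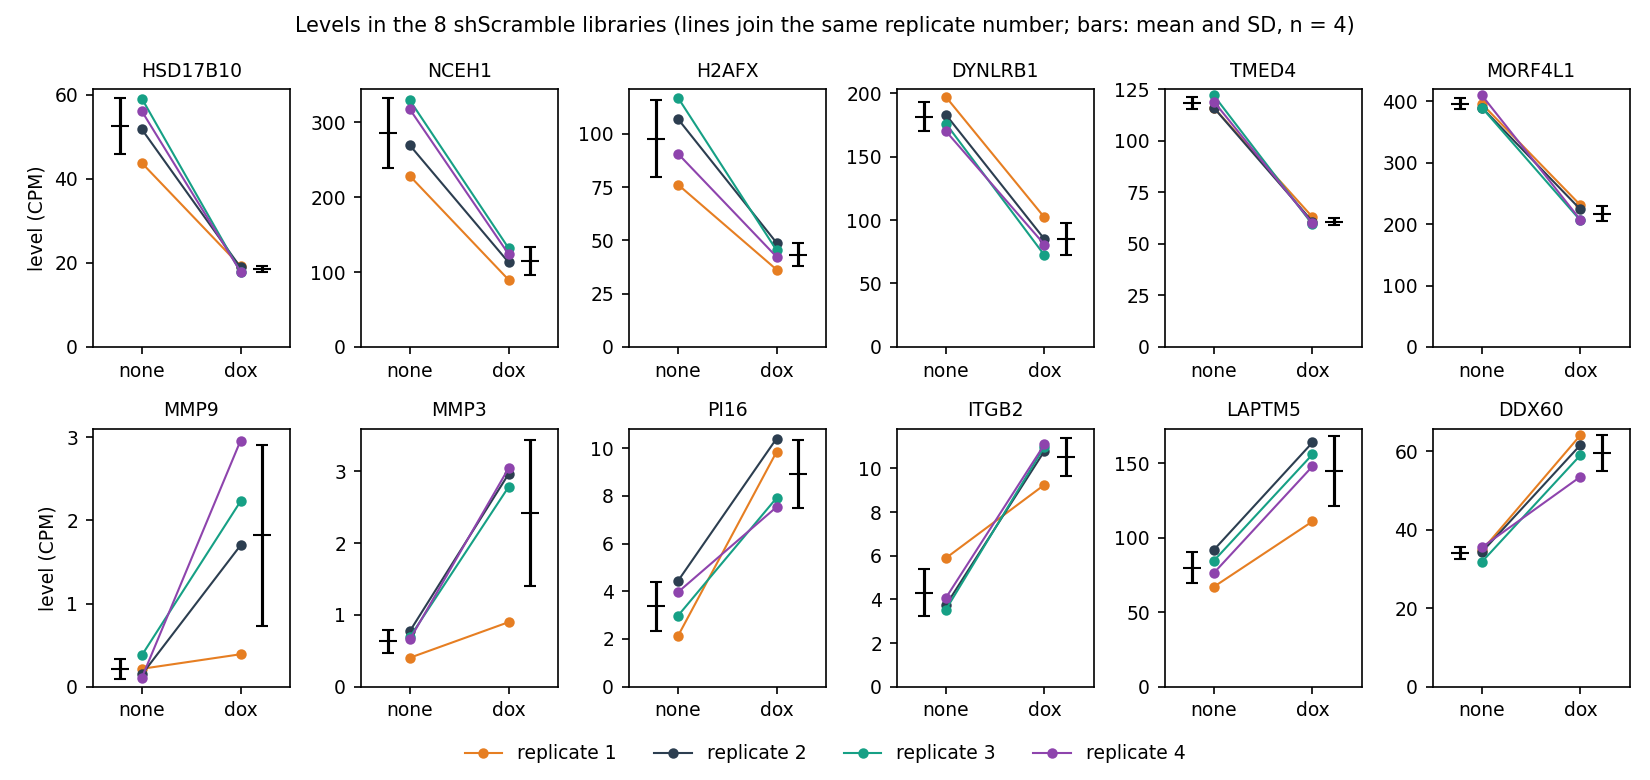
Levels in CPM (vertical axis, from 0) of 6 genes that fell (top) and 6 that rose (bottom) in the 8 shScramble libraries, without and with doxycycline; coloured lines join libraries of the same replicate number and black bars give the mean and SD of each group (n = 4). HSD17B10 with the drug lies between 17.8 and 19.2 CPM in all 4 replicates, whereas MMP9 and MMP3 rise much less in replicate 1 (to 0.39 and 0.898 CPM) than in the others.

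Genes of the mitochondrion, the known site of action of the drug, were read as lists. Over all genes tested 0.697% were higher and 0.467% lower, so lists of these sizes can hold few or no called genes by those shares alone. Mitochondrially encoded genes took 3.62%, 2.69%, 2.41% and 2.77% without and 2.97%, 3.02%, 2.2% and 2.85% with doxycycline, as shares of all counts in replicates 1 to 4. The groups overlapped (exact two-sided permutation test over libraries, p = 0.8; smallest p possible 0.0286). None of the 13 mitochondrially encoded transcripts was called by edgeR, DESeq2 or limma-voom, none had an unadjusted p under 0.05, and their log2 fold changes ran from -0.14 to 0.05. Of 45 mitochondrial ribosomal proteins, 0 were called by any of the 3 tools and 2 had an unadjusted p under 0.05, with a median of -0.09 and a range of -0.24 to 0.13, beside a median of 0.00 over all genes tested. Of 43 nuclear-encoded subunits of oxidative phosphorylation, 0 were called by those tools and 1 had an unadjusted p under 0.05 (median -0.03). Of 20 mitochondrial chaperones and proteases edgeR called 0 and DESeq2 1, and 5 had an unadjusted p under 0.05 (median -0.07). Of 31 mitochondrial translation factors and synthetases the 1 called was HSD17B10, listed for its part in transfer RNA maturation. Without replicate 1, 6 of 45 mitochondrial ribosomal proteins (median -0.17), 5 of 20 chaperones and proteases and 3 of 43 oxidative phosphorylation subunits were called lower, and 0 higher in each list. In that fit 2.81% of all genes tested were lower and 4.85% higher.

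Genes of the integrated stress response, the pathway that raises ATF4 targets when translation or mitochondria are disturbed, had 0 higher and 1 lower member of 34 (median 0.07). For this and the next lists, 0.697% of all genes tested were higher and 0.467% lower. At these shares, 0 or 1 call in a list cannot be read as a response or a lack of one. The lower member of the integrated stress response was SLC7A11, the cystine transporter. It stood at 82.1, 94.9, 113 and 129 CPM without and 45, 71.9, 84.6 and 79.3 CPM with the drug (log2 -0.59, SE 0.088, adjusted p = 0.00421). Each pair fell, but the groups overlapped, and without the block the adjusted p was 0.571. In the unfolded protein response 1 of 26 was called, CREB3L2, a transcription factor held in the endoplasmic reticulum, which fell by 0.50 on the log2 scale, and among serine and one-carbon synthesis genes 0 of 16 by edgeR and 2 by DESeq2, with 5 at an unadjusted p under 0.05. Of 25 glycolysis genes 1 was lower, the lactate exporter SLC16A3, which holds GTCGCCC (165 to 259 CPM without and 111 to 136 CPM with the drug; log2 -0.64, SE 0.0852). Its 3′ end overlaps CSNK1D on the opposite strand.

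The hypoxia response had 2 higher and 1 lower member of 23, beside 0.697% higher and 0.467% lower over all genes tested. NDRG1, a stress-induced gene, was 430, 186, 139 and 142 CPM without and 502, 272, 215 and 246 CPM with the drug (log2 0.55, SE 0.0843, adjusted p = 0.00552). EGLN3, an oxygen-sensing hydroxylase, rose by 0.66 (SE 0.128), while the angiogenic factor VEGFA fell by 0.33 (SE 0.0668) from 174.0 ± 5.94 to 138.0 ± 6.56 CPM. NDRG1 and EGLN3 were highest in replicate 1 of each condition, so their groups overlapped while each pair rose. Of 18 metal response genes, SLC40A1, the iron exporter ferroportin, rose by 0.72 (SE 0.104) and SLC30A1, a zinc exporter, by 0.47 (SE 0.0799). VEGFA and SLC30A1 kept their groups apart and SLC40A1 did not. None of SLC7A11, CREB3L2, SLC16A3, NDRG1, EGLN3, VEGFA, SLC40A1 and SLC30A1 was called without the block. Of 22 targets of NRF2 and the aryl hydrocarbon receptor, which answer oxidants and foreign compounds, SLC7A11 was again the 1 called (median 0.05). Without replicate 1 the higher and lower members numbered 5 and 1 in the integrated stress response, 3 and 1 in the unfolded protein response, 3 and 2 in glycolysis, 4 and 1 in the hypoxia response and 0 and 3 in serine and one-carbon synthesis. The shares over all genes tested in that fit were 4.85% higher and 2.81% lower.

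Of the genes listed for handling small RNAs, none was called with all 4 replicates, and 6 were without replicate 1. With all 4 replicates 0.697% of all genes tested were higher and 0.467% lower, so 0 calls in such a list says little. Of 27 members of the small RNA machinery, among them Drosha, Dicer and Argonaute genes, 0 were called by edgeR, DESeq2 or limma-voom, 2 had an unadjusted p under 0.05, and the log2 fold changes ran from -0.19 to 0.34 (median 0.07). Without replicate 1, 6 of the 27 were higher and 0 lower, beside 4.85% and 2.81% of all genes tested in that fit. Of 20 tested double-stranded RNA sensors and signalling genes edgeR called 0 and DESeq2 2, and 8 had an unadjusted p under 0.05 (median 0.14), and 4 were called higher without replicate 1. Of 30 NF-kB targets and chemokines 0 were called by the 3 tools, with 8 at an unadjusted p under 0.05 (median 0.05), and 9 of 31 were called higher and 0 lower without replicate 1. Their log2 fold changes ran from -0.96 to 2.69, with 18 above 0. The largest were 2.69 for CCL5, 2.22 for IL1B and 2.01 for CCL20 (edgeR adjusted p = 0.266, 0.379 and 0.359). All of these rose in replicates 2 to 4 and fell in replicate 1. The interferon genes IFNB1 and IFNL1 had no count in any of the 8 libraries.

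The interferon response list had 5 higher and 0 lower members of 56 (8.93%, beside 0.697% of all genes tested called higher), with 28 at an unadjusted p under 0.05 and a median of 0.19. DDX60, an RNA helicase induced by interferon (chromosome 4, 168216293 to 168318807, minus strand), rose from 34.7, 34.3, 31.8 and 35.5 CPM to 64.1, 61.6, 59 and 53.5 CPM (log2 0.80, SE 0.0854, adjusted p = 0.00044). It was called without the block too (adjusted p = 0.00236) and its groups were far apart. Its neighbour and paralog DDX60L rose by 0.46 (SE 0.0915). IFIT2 and IFIT3, which bind viral RNA or its partners, rose by 0.53 (SE 0.0669) and 0.40 (SE 0.0686), IFIT2 from 92.3 ± 22.1 to 133.0 ± 34.0 CPM with overlapping groups and IFIT3 from 192.0 ± 7.98 to 255.0 ± 33.4 CPM without overlap. IFIT1 was the remaining member called (log2 0.40, adjusted p = 0.0465). For IFIT2 and IFIT3 replicate 1 with the drug was the highest library, at 182 and 302 CPM. Without the block 1 member of the list was called and without replicate 1 19 were, all higher, beside 4.85% of all genes in the latter fit.

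Several genes of the matrix and its remodelling were higher. Of 54 extracellular matrix genes 9 were higher (16.7%, beside 0.697% of all genes tested) and 0 lower (median 0.23), among them MATN2, COL1A2, SPP1, COL8A1, LUM, COL6A2, COL6A3 and COL12A1. COL1A2, a chain of type I collagen, went from 27.3, 20.6, 11.1 and 12 CPM to 41.3, 32.4, 24.1 and 30.1 CPM (log2 0.91, SE 0.125, adjusted p = 0.00244); each pair rose, but the uninduced replicate 1 was above the induced replicate 3. MATN2, an adaptor of matrix fibrils, rose from 67.3 ± 9.79 to 103.0 ± 18.2 CPM (log2 0.61, SE 0.0717), without overlap. SPP1, osteopontin, was uneven: 0.645, 0.369, 0.208 and 2.46 CPM without and 1.99, 6.57, 11 and 8.88 CPM with the drug (log2 3.01, SE 0.499, adjusted p = 0.0147), and it was not called without replicate 1 (adjusted p = 0.182). Without the block 0 matrix genes were called and without replicate 1 27 were, all higher, beside 4.85% of all genes in the latter fit.

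Of 37 matrix proteases and inhibitors 5 were higher (13.5%) and 0 lower (median 0.13), against 1 without the block and 11 without replicate 1. For this and the next lists, 0.697% of all genes tested were higher, and 4.85% without replicate 1. Beside MMP9 and MMP3 these were PLAT, the tissue plasminogen activator (187.0 ± 29.8 to 278.0 ± 40.6 CPM; log2 0.57, SE 0.062, adjusted p = 0.000462), PLAU, the urokinase (log2 0.31, SE 0.0678), and HPSE, heparanase. HPSE was 24.8, 25.1, 23.4 and 25.4 CPM without and 33.8, 34.7, 34.6 and 34.7 CPM with the drug (log2 0.48, SE 0.0864, adjusted p = 0.0147); each group was tight and they did not overlap. Of 25 targets of the mechanosensitive coactivators YAP and TAZ, 4 were higher (16%) and 0 lower (median 0.13), by 0.30 to 0.38 on the log2 scale: CYR61 and CTGF, matricellular proteins, ANKRD1, a nuclear ankyrin-repeat protein, and F3, tissue factor. CYR61 rose from 706.0 ± 35.9 to 907.0 ± 79.8 CPM and F3 from 439.0 ± 36.6 to 564.0 ± 52.9 CPM. None of the 4 YAP/TAZ targets was called without the block, and 12 of 25 were called higher without replicate 1. FHL1, a LIM-domain protein of the actin cytoskeleton, was the called member of 26 SRF/MRTF targets, from 42, 42.9, 43 and 40 CPM to 64, 78.1, 69.5 and 66.8 CPM (log2 0.73, SE 0.0796, adjusted p = 0.000469), and passed without the block too (adjusted p = 0.00394). Of 17 integrins ITGB2 was called. Without replicate 1, 6 SRF/MRTF targets were higher and 2 lower, and 7 integrins were higher and 0 lower.

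Lists of growth genes held at most 2 called members each with all 4 replicates. Beside the counts below, 0.467% of all genes tested were lower, and 2.81% without replicate 1. Of 48 G1/S and replication genes 1 was lower, GINS3, a subunit of the replicative helicase that holds GTCGCCC (18.6 ± 2.78 to 11.5 ± 2.08 CPM; log2 -0.70, SE 0.105). Of 41 G2/M and mitosis genes 1 was lower, PRC1, which bundles spindle microtubules (log2 -0.28, SE 0.0622). Without replicate 1, 6 of 48 and 8 of 41 were lower in these lists, with 0 and 1 higher. Of 31 p53 and DNA damage genes 2 were lower, H2AFX and MDM2, the ubiquitin ligase of p53. MDM2 stood at 80.1, 83.2, 78.9 and 91.5 CPM without and 55.1, 56.3, 56.7 and 57.5 CPM with the drug (log2 -0.56, SE 0.0744, adjusted p = 0.00208) with no overlap of the groups. It holds GTCGCCC 3 times, 2 of them in the run GTCGCCCAGG. Of 38 MYC targets and ribosome biogenesis genes 0 were called by the 3 tools and 0 had an unadjusted p under 0.05, and of 15 replication-dependent histones 0 were called with 1 at that level. Without replicate 1, 4 of the 38 were lower and none of the 15 histones was called. Of 29 apoptosis genes 0 were called by any of edgeR, DESeq2 and limma-voom and 4 had an unadjusted p under 0.05. The 56 cytosolic ribosomal proteins all had a fold change below 0, from -0.19 to -0.02 with a median of -0.10. By the 3 tools 0 of them were called, with 2 at an unadjusted p under 0.05, and without replicate 1 18 were called lower.

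**Figure D4:**
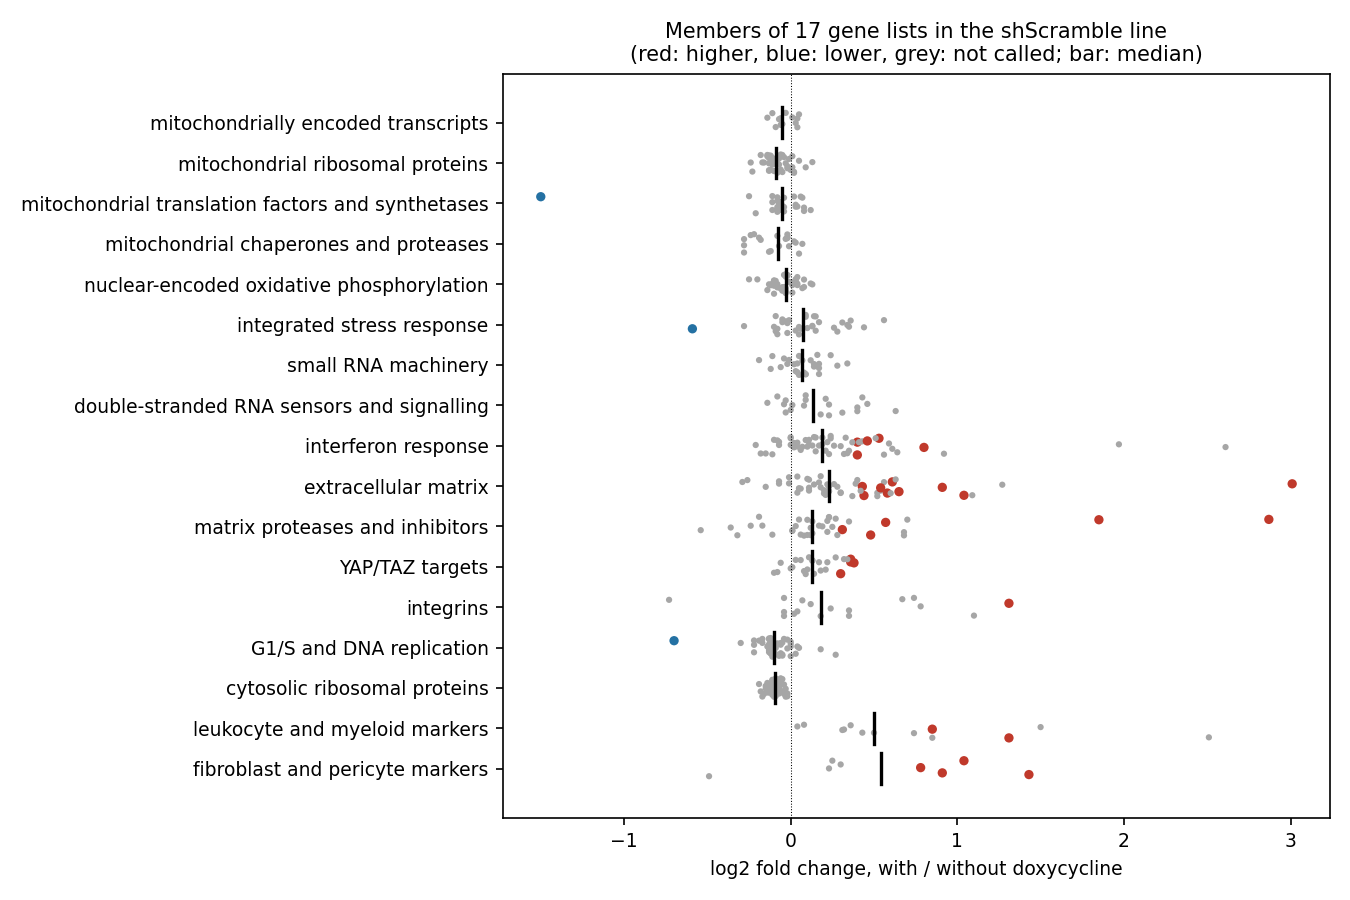
Log2 fold change with against without doxycycline (horizontal axis) of each tested member of 17 gene lists (rows) in the shScramble line; red points were called higher, blue points lower, grey points were not called, and the black bar is the median of the list. Called members lie to the right in the interferon, matrix, protease, YAP/TAZ and marker lists, and the mitochondrial lists stay close to 0 except for HSD17B10 at -1.50.

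Markers of other cell types moved with the drug as well, and their part in the rises above was not tested. Of 31 leukocyte and myeloid markers 13 were tested, 2 were higher (LAPTM5 and ITGB2) and 0 lower, beside 0.697% and 0.467% of all genes. The median was 0.50, with all 13 above 0. Without replicate 1, 7 of 16 were higher and 0 lower (median 0.77), beside 4.85% and 2.81% of all genes. Their summed level was 103 to 123 CPM without and 162 to 216 CPM with the drug (112 ± 10.1 and 197 ± 24.5 CPM, SD, n = 4; exact two-sided permutation test, p = 0.0286, the smallest possible; paired by replicate number, p = 0.125, also the smallest). Without LAPTM5, which gives most of this level, the sums were 26.7 to 36.9 and 50.7 to 55.6 CPM. The list and the test were chosen with earlier results of these data known, so these p-values are no independent support. PTPRC, the common leukocyte antigen, was 0.403, 0.0738, 0.38 and 0.0733 CPM without and 0.39, 2.62, 1.61 and 1.37 CPM with the drug and was not called (adjusted p = 0.107). CD53, a leukocyte tetraspanin too low to be tested, had 5 counts over the uninduced and 109 over the induced libraries, and FCER1G, an immune receptor chain, 17 and 105. These 3 genes, chosen after their values were seen, were high in replicates 2 to 4 with the drug and at the uninduced level in replicate 1, as CHI3L1 was. CD86 had no count in any of the 8 libraries, and C1QA, C1QB and S100A8 had at most 2 counts over the induced libraries. Whether more RNA per cell or more cells of a type stand behind such a rise cannot be told apart in bulk RNA.

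Of 13 fibroblast and pericyte markers 8 were tested and 4 were higher, COL1A2, PI16, PDGFRB and LUM, with a median of 0.54. For these and the next markers, 0.697% of all genes tested were higher, and 4.85% without replicate 1. The summed fibroblast and pericyte level was 35.8 to 57.4 CPM without and 59.3 to 86.5 CPM with the drug, higher in 4 of 4 same-numbered pairs. LUM, a matrix proteoglycan, was 3.66, 1.29, 0.934 and 1.17 CPM without and 7.57, 2.38, 2.23 and 2.3 CPM with it (log2 1.04, SE 0.216, adjusted p = 0.0355), highest in replicate 1 of each condition. DPT had no count, and DCN, FAP and THY1 were too low to be tested. Of 10 endothelial markers 5 were tested and 1 was higher, PECAM1, with the same pattern as LUM (3.39, 0.886, 0.83 and 1.03 CPM against 7.96, 2.21, 2.23 and 1.62 CPM; log2 1.16, SE 0.238), against 3 higher without replicate 1. The summed endothelial level was 54.9 to 69.7 CPM without and 69.6 to 88.2 CPM with the drug, higher in 4 of 4 pairs although the groups overlapped. Of 7 luminal markers tested 0 were called by the 3 tools, with 1 at an unadjusted p under 0.05, and the summed level overlapped (104 to 151 and 111 to 165 CPM) but was higher in 4 of 4 pairs. Lymphocyte and red cell markers were near 0, with a sum of 2.87 to 6.18 CPM without and 3.97 to 9.14 CPM with the drug and 9 of 18 at 0 in all 8 libraries.

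The doxycycline response of the shScramble line differed from that of the shAKAP2 line for most of the called genes. These genes were chosen by their fold change in shScramble, which also enters the difference, so the choice favours a difference in that direction. The shAKAP2 response was much broader, with 36.4% of 15566 genes called (17.6% higher and 18.8% lower). In the same fit to all 16 libraries 254 genes were higher and 162 lower in shScramble. The difference between the responses, the interaction term, was called for 26.2% of genes, 14.5% as higher and 11.7% as lower in shScramble. In shAKAP2, 28 of the 103 higher genes rose as well and 43 fell, and the difference was called as higher in shScramble for 66 and as lower for 10. Of the 69 lower genes, 25 were also lower in shAKAP2 and 18 were higher, and the difference was called as lower in shScramble for 46 and as higher for 5. The 35 lower genes with either word had a median log2 fold change of -0.56 in shScramble and -0.01 in shAKAP2, and the difference was called lower for 26 of them. For the 32 with neither the values were -0.49, 0.03 and 19.

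HSD17B10 changed by 0.15 in the shAKAP2 line (SE 0.0811, adjusted p = 0.155), and the difference between the lines was -1.66 (SE 0.117, adjusted p = 1.87e-09). H2AFX and TMED4 rose there, by 0.46 and 0.30 on the log2 scale, and the differences were -1.63 (SE 0.0936) and -1.26 (SE 0.082). NCEH1 fell in both lines, less in shAKAP2 (log2 -0.26, SE 0.0483, adjusted p = 0.000297), with a difference of -1.06 (SE 0.0689). DYNLRB1 was not called in shAKAP2 (log2 0.11, adjusted p = 0.126; difference -1.22, SE 0.0812). MORF4L1 behaved otherwise: it fell by 0.86 in shAKAP2 and by 0.87 in shScramble, and the difference of -0.01 (SE 0.072, adjusted p = 0.935) was smaller than its error. SLITRK5 fell in both lines, further in shAKAP2 (log2 -4.26; difference 2.48, SE 0.445, adjusted p = 0.000289).

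Among the rises, MMP3, PI16, ITGB2, LAPTM5, DDX60, PLAT, COL1A2 and SLC30A1 fell in the shAKAP2 line when its hairpin was induced. For LAPTM5 the changes were 0.85 and -0.45 (difference 1.30, SE 0.0868, adjusted p = 7.54e-10), for DDX60 0.80 and -0.69 (difference 1.49, SE 0.108, adjusted p = 2.39e-09) and for PLAT 0.57 and -1.02 (difference 1.59, SE 0.0786, adjusted p = 1.41e-11). MMP9 was not called in shAKAP2 (log2 -0.44, adjusted p = 0.431) and its difference was 3.31 (SE 0.641, adjusted p = 0.000633). The 4 YAP/TAZ targets called in shScramble rose in shAKAP2 too, where 11 of the 25 were higher and 7 lower: CYR61 by 0.36 in shScramble and 0.74 in shAKAP2, ANKRD1 by 0.38 and 0.79, CTGF by 0.30 and 0.70 and F3 by 0.36 and 0.34. The difference was called for CYR61, ANKRD1 and CTGF (-0.38 to -0.41) and not for F3 (0.02, SE 0.064, adjusted p = 0.889). DDX60L and GDPD5 also rose in both lines.

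**Figure D5:**
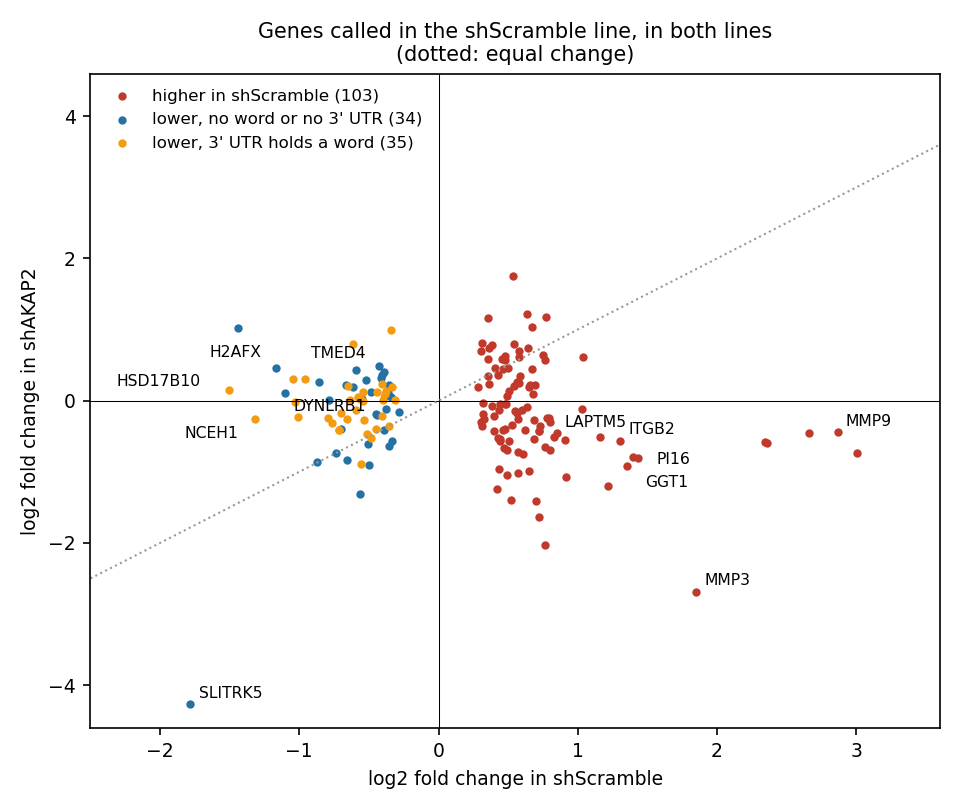
Log2 fold change with against without doxycycline in the shAKAP2 line (vertical axis) against that in the shScramble line (horizontal axis) for the 103 higher (red) and 69 lower (blue, or orange for the 35 with either 3′ UTR word) genes called in shScramble; the dotted line marks equal change. HSD17B10, H2AFX, NCEH1, DYNLRB1 and TMED4 lie between -0.26 and 0.46 on the vertical axis, NCEH1 called lower and H2AFX and TMED4 called higher there. MMP3 falls by 2.68 in the shAKAP2 line, and LAPTM5, ITGB2, PI16 and GGT1 lie below 0.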

How the data were processed

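Libraries were made with the NEBNext Ultra II RNA kit after oligo(dT) enrichment, per the labels' protocols. The submitters' processing notes name STAR 2.5.2b, featureCounts, Subread 1.5.2 and GRCh38; the annotation release is not given in the sources used here, nor is the strand setting. For 57500 genes the authors deposited raw counts of reads per gene, in whole numbers.

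The 8 shScramble libraries were analysed with edgeR 4.0.16 in R 4.3.3 (filterByExpr, TMM scaling, robust quasi-likelihood test, replicate number as a block, 3 residual degrees of freedom, biological coefficient of variation 11.2%). Adjusted p-values for genes come from that test, with Benjamini-Hochberg adjustment over all genes tested. Each SE of a log2 fold change was derived from the F statistic. The difference between lines is the interaction term over 16 libraries, with replicate number within line as a block. Levels are CPM on TMM-scaled library sizes. Same-numbered libraries deviated together for replicate 1 (correlation 0.45) and less for 2, 3 and 4 (0.03, 0.24 and 0.08); the numbers are those of the labels, and the block is kept because replicate 1 stands apart. No libraries of a group were duplicates within sampling noise.

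Gene positions and 3′ UTRs are from GENCODE 29 on GRCh38, where 56898 of the identifiers were found. The named genes are the 15 with the largest fold change in each direction among called genes with a mean of at least 1 CPM, no overlap between groups and a symbol that is no clone name, plus up to 4 called members with the smallest p from each of 36 gene lists, plus AKAP2; of these 60, 2 genes are not reported here. The members, lists and tests were chosen with earlier results of these data known. Gene lists are described by counts and medians, with no gene set test; the mitochondrial share and the summed leukocyte and myeloid markers, 1 value per library, were compared by exact permutation tests over libraries. Alternatives were no block, all 16 libraries, DESeq2 1.42.0, limma-voom (limma 3.58.1), RLE scaling, no filter and leaving out each replicate. The pipeline was tested on simulated counts.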

Additional observations from a re-analysis of the deposited data

Results flagged for a closer look

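In 17 of 136 groups of 4 libraries, 1 library stood farther from the other 3 than Dixon's 95% limit allows. For 1 group chance gives about 1 in 20, but the groups share the same libraries and are not independent. In all 17 the library was replicate 1. With doxycycline its level was 0.898 CPM for MMP3, 16.5 for GGT1, 9.64 for CALCR, 18.6 for PDGFRB, 9.72 for PTGS1, 27.9 for EGLN3, 339 for PLAT, 33.8 for HPSE, 130.0 for MATN2, 7.57 for LUM and 7.96 for PECAM1. The summed endothelial markers stood at 88.2 CPM in the same library. Without doxycycline its level was 24.8 CPM for ZNF114, 430.0 for NDRG1, 232 for PLAT, 3.66 for LUM and 3.39 for PECAM1.

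The change with doxycycline differed between the shScramble and the shAKAP2 line for 50 of the 58 named genes reported here by the interaction term in edgeR. It was called for 26.2% of all genes tested. Apart from AKAP2, the named genes were chosen by their change in shScramble, which favours such a difference. The values are log2 differences, shScramble minus shAKAP2, and the adjusted p ran from 1.41e-11 for PLAT to 0.0261 for VEGFA. For the targeted gene AKAP2 the difference was 5.62. Among secreted, matrix and surface proteins it was 3.31 for MMP9, 4.53 for MMP3, 2.24 for PI16, 1.59 for PLAT, 0.53 for HPSE, 1.36 for MATN2, 1.98 for COL1A2 and 3.71 for SPP1. It was 1.87 for ITGB2, 1.35 for PCDH1, 1.04 for ADAMTSL4, 1.01 for PDGFRB, 2.41 for CALCR, 1.67 for PECAM1, 1.30 for LAPTM5, 0.36 for KRT7 and 1.09 for FHL1. Among enzymes and transporters it was 2.28 for GGT1, 1.15 for ALPP, 1.42 for PTGS1, 1.14 for both SLC40A1 and SLC30A1, -1.02 for SLC7A11 and -0.65 for SLC16A3. Interferon genes differed by 1.49 for DDX60, 0.87 for IFIT2 and 0.83 for IFIT3, and YAP/TAZ targets by -0.38 for CYR61, -0.41 for ANKRD1 and -0.40 for CTGF. Of hypoxia and stress genes, NDRG1 differed by 0.70, VEGFA by 0.24 and CREB3L2 by 0.40, and the zinc finger gene ZNF114 by 1.10.

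Among the genes that fell in shScramble, SLITRK5 differed by 2.48, since it fell further in shAKAP2. The difference was -1.66 for HSD17B10, -1.06 for NCEH1, -1.63 for H2AFX, -1.22 for DYNLRB1, -1.34 for LMLN, -1.02 for EVI5L, -0.78 for SOCS2 and -1.26 for TMED4. It was -1.13 for DYNLL2, -0.55 for MBNL3, -0.80 for ZC3HAV1L, -0.45 for KATNAL1, -0.52 for GINS3 and -0.59 for MDM2.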

How the results depend on the processing

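The direction of all 59 called named genes was kept in every setting tried, but the number of calls depended on the settings. Each of the 59 moved the same way in all 4 same-numbered pairs, so a change of direction was hardly possible in these libraries. Against 103 higher and 69 lower genes, the fit with no replicate block gave 14 and 23, all 16 libraries with the block 254 and 162, DESeq2 194 and 119, and no filter on low counts 260 and 140. Leaving out 1 replicate gave 17 to 718 higher and 17 to 416 lower genes, the most without replicate 1. Leaving out 1 replicate with no replicate block gave 501, 0, 0 and 1 higher and 296, 2, 6 and 4 lower genes for replicates 1 to 4, with 2899, 452, 496 and 578 at an unadjusted p under 0.05. Limma-voom, RLE scaling and 16 libraries without the block stayed within 1.5 times the counts. Pairing of the libraries by number is clear for replicate 1 and weak for the others, so a call lost without the block is not described as a weaker effect. Genes whose change was lower in shScramble than in shAKAP2 numbered 1172 with no replicate block against 1820 with it. The difference of 84.9 CPM in summed leukocyte and myeloid markers had p = 0.125 in the exact paired permutation test (replicate block), the smallest p possible, and was 81.4 to 93.9 CPM with 1 replicate left out, where the exact permutation test of 3 against 3 cannot go below 0.1. The difference of shares for GTCGCCC was 29.3 percentage points, 42.7 with no replicate block and 9.99 without replicate 1. The cause of these changes was not tested. Of the 59 genes, 59 stayed called by DESeq2 and limma-voom, 58 by RLE scaling (without CTGF), 58 without replicate 1 (without SPP1), 22 with no block, and 26, 32 and 48 without replicates 2, 3 and 4. With 4 libraries a group and 3 residual degrees of freedom, small changes at low counts were not detectable.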
